A study of Mus musculus with 6 samples.

Results

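A set of 10 transcription factors that act in the hair follicle were followed in mouse back skin with and without ultraviolet B light (UVB): Hoxc13, Msx2, Foxn1, Dlx3, Gata3, Lhx2, Sox9, Sox21, Foxq1 and Trps1. They were taken by gene name from the probes of the array that were not controls, and all 10 of 10 were found, with 13 of 55681 probes: 3 for Trps1, 2 for Sox21 and 1 for each of the others. All mice were male C57BL/6 mice aged 6 to 8 weeks whose backs had been shaved. The UVB group of 3 mice was exposed on the back 3 times a week over 2 weeks, each time to 180 mJ/cm2, beginning 2 days after shaving, and the control group of 3 mice stayed in the dark. For each mouse, 0.2 µg of total RNA from skin was labelled with the dye Cy3 and read on 1 Agilent array of 1 colour, so that each group held 3 arrays. The sources used here do not give the time between the last exposure and the sampling.

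Mouse back hair follicles pass through growth, regression and rest, and each new hair is built by matrix cells at the base of the follicle, which surround the dermal papilla and divide under its signals. Matrix cells then take different fates, the hair shaft with its hair keratins and the inner root sheath with trichohyalin and its own keratins, while the outer root sheath and the stem cells of the bulge persist outside them. The factors named here sit at different steps of this programme: Hoxc13, Msx2, Foxn1 and Dlx3 act in the matrix and differentiating shaft, Gata3 in the inner root sheath, Lhx2 and Sox9 in stem cells and outer root sheath, Sox21 and Foxq1 in the shaft, and Trps1 in the mesenchyme and epithelium of the follicle.

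Signals are given as a percentage of the 75th percentile of the same array of its non-control spots. Differences are log2 fold changes of UVB against control with limma standard errors (SE), and a gene passed where its limma p, Benjamini-Hochberg adjusted over all 24355 genes tested, was under 0.05. Levels are compared between arrays for 1 probe at a time, since probes differ in brightness for the same amount of RNA. In bulk skin, fewer cells of a type and less RNA per cell cannot be told apart.

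Of the non-control spots of an array, 54.9% to 63.3% were well above background, and none was saturated. The 75th percentile itself lay at 363 to 519 signal units on control arrays and 302 to 352 on UVB arrays. Markers of suprabasal epidermis were measured in 14 of 14 cases, with a summed signal of 2574 to 3261 times the 75th percentile in controls and 4126 to 4958 after UVB, while 7 skeletal muscle markers summed to 2.38 to 6.27 and 3.60 to 4.33. All 13 probes of the follicle factors were well above background on all 6 arrays, and no value was missing or imputed.

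Of the 10 factors, Trps1 and Dlx3 passed, both higher after UVB, and 8 did not pass. The background share of genes that passed was 12.6%, made of 5.55% higher and 7.01% lower. No factor passed as lower by limma, where 2 of them, Gata3 and Foxq1, lay lower at an unadjusted p under 0.05 (18.0% of all genes), and 6 of the 10 had such a p in either direction (31.5% of all genes). In 6 factors the 3 UVB arrays and the 3 control arrays did not overlap, against 38.5% of all genes. Of these 6, 4 were higher in every UVB array (Hoxc13, Msx2, Dlx3 and Trps1; 15.9% of all genes) and 2 were lower in every UVB array (Gata3 and Foxq1; 22.6% of all genes). The median log2 fold change of the 10 was 0.06, against -0.04 over all genes tested, with 5 positive and 5 negative values. By probe, 4 of the 13 passed as higher (background 5.08% of 33763 probes, and 11.2% in either direction) and 0 as lower (6.10%), and 8 had groups that did not overlap (37.2%), 6 of them higher (15.7%) and 2 lower (21.5%). With 1 array left out in turn, 1 to 3 of the 10 passed as higher and 0 as lower.

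**Figure D1:**
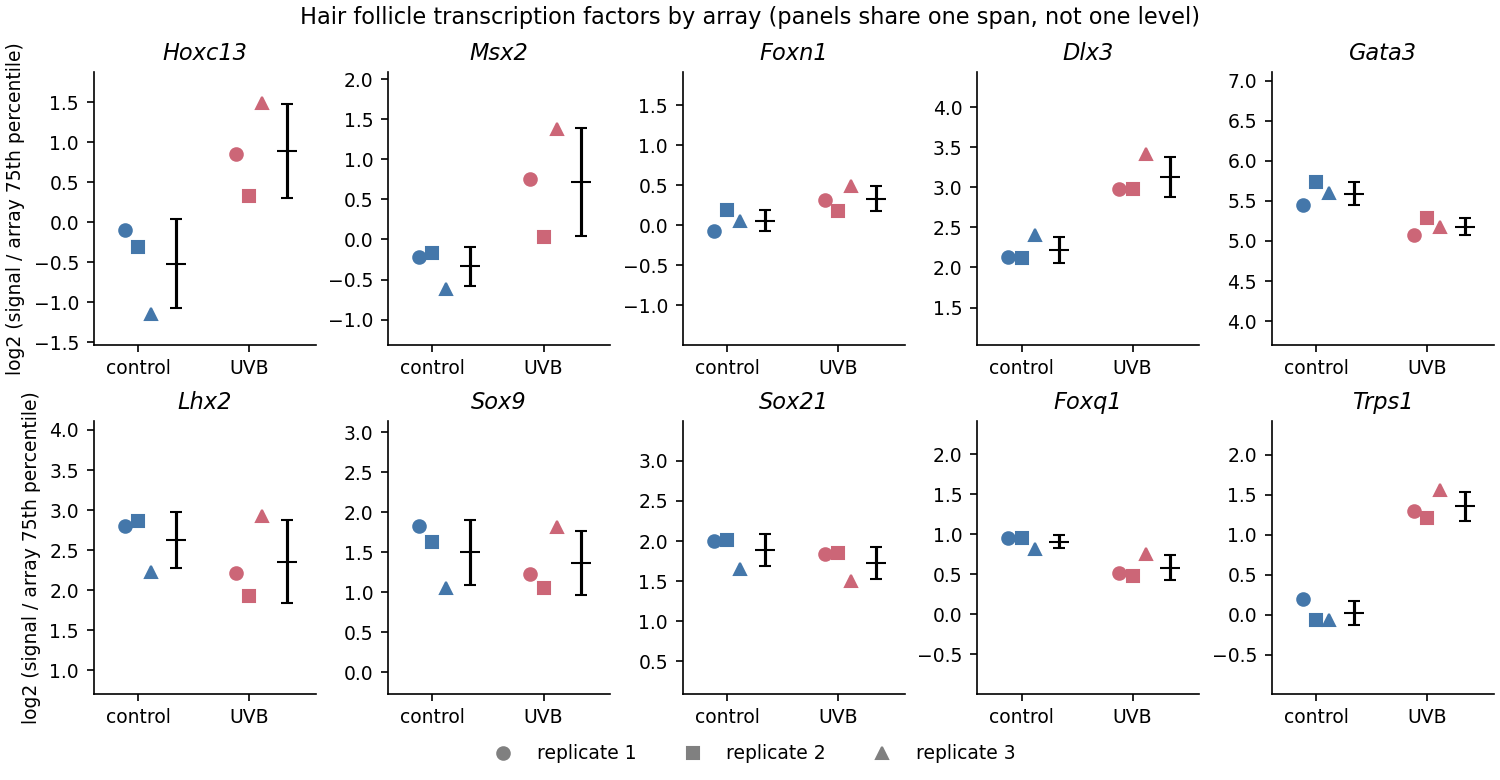
Log2 signal relative to the 75th percentile of the array (y axis) for each of the 10 factors in control and UVB arrays, with symbols for replicates 1 to 3 and black bars for the group mean and SD (n = 3). The panels span the same number of log2 units but start at different levels. UVB arrays lie above all control arrays for Hoxc13, Msx2, Dlx3 and Trps1, below them for Gata3 and Foxq1, and overlap with them in the other 4 panels.

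Trps1, a zinc finger repressor of the GATA family that is required for normal hair follicles, showed the smallest p of the 10. It was read by 3 probes on the minus strand of chromosome 15 (coordinates of the mm9 build, as in the files), at chr15:50492241-50492300, chr15:50490034-50490093 and chr15:50486813-50486872. Their first 30 of 60 bases are shown, 5′ to 3′ in the orientation of the deposited probe sequence, because the result rests on 3 different stretches of 1 transcript. Which exon or untranslated region each probe lies in was not analysed here.
Trps1 A_55_P2005585: atgacttcacaacacatatccagaggggcc
Trps1 A_66_P120603: ttaaccagtctgtgactgttccagcaaatg
Trps1 A_51_P513032: ttgttttcatagtgcatgttcatttcgact

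The brightest Trps1 probe, A_55_P2005585, stood at 114%, 95.9% and 95.7% of the 75th percentile in control replicates 1 to 3 and at 245%, 231% and 293% in UVB replicates 1 to 3. All UVB arrays lay above all control arrays, and the spread within each group was small beside the gap between them. The difference was 1.33 ± 0.15 (SE) on the log2 scale, 2.51-fold, with a 95% interval of 0.97 to 1.69 (limma, adjusted p = 0.00574). Probe A_66_P120603 read 78.9%, 76.2% and 76.8% in controls and 178%, 179% and 218% after UVB, a log2 fold change of 1.30 ± 0.13. Probe A_51_P513032 read 66.5%, 61.7% and 65.0% in controls and 129%, 144% and 154% after UVB, a log2 fold change of 1.14 ± 0.13. The 3 Trps1 probes thus each rose by more than 2-fold, with limma p-values adjusted over all 33763 probes of 0.00495 to 0.00652. UVB replicate 3 was the highest array for each of them. Without scaling, the processed signal of A_55_P2005585 was 414 to 498 units in controls and 728 to 886 after UVB, so that the groups were apart before any scaling too. Trps1 passed with each of the 6 arrays left out, at 1.23 to 1.41 on the log2 scale (limma, adjusted p 0.0121 to 0.0315).

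The dermal papilla, where Trps1 is known to be expressed, was followed by 20 markers, of which 14 were tested. Crabp1 (2.19 on the log2 scale) and Prdm1 (1.48) rose, Rspo3, a secreted Wnt agonist, fell by 1.65 (without UVB replicate 1 by 1.57, limma adjusted p = 0.0508), and 11 did not pass. The Prdm1 call was also lost with single arrays left out, as given for it among the other transcription factors. The summed signal of the list was 15.8 to 16.4 times the 75th percentile in controls and 18.2 to 22.8 after UVB, but without Prdm1, which keratinocytes also express, the sums overlapped at 12.4 to 13.9 and 11.0 to 14.1. The defining papilla markers Corin, Sox2, Sox18 and Tbx18 were too dim to be tested. The part of papilla cells in the Trps1 rise was not tested.

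Dlx3, a homeodomain factor of matrix cells and of the differentiating shaft and inner root sheath, was the other factor that passed. Its probe maps to the plus strand at chr11:94986262-94986357 (mm9), a span of 96 bases for a probe of 60. Its first 30 bases, and those of the other 3 homeodomain factors described below, identify the transcripts that were read.
Dlx3 A_55_P2122987: ttttttagagcaaccaagagaagcaggtcc
Hoxc13 A_55_P2104219: actggctcattacaaaacagtgttcttttg
Msx2 A_55_P2043486: cctgtccatctcttcccccagtatattttt
Lhx2 A_51_P257419: agagcttccgtattttcaaagactgccacg

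Dlx3 stood at 440%, 435% and 531% of the 75th percentile in controls and at 787%, 791% and 1065% after UVB. Every UVB array lay above every control array, and replicate 3 was the highest of its group in both. UVB arrays were 1.87-fold higher on average, a log2 fold change of 0.90 ± 0.17 with a 95% interval of 0.49 to 1.31 (limma, adjusted p = 0.0241). In unscaled signal the groups overlapped, at 1594 to 2569 units in controls and 2487 to 3213 after UVB. The call was lost without control replicate 1 (0.86, limma adjusted p = 0.0659), without control replicate 2 (0.85, adjusted p = 0.0972) and without UVB replicate 1 (0.98, adjusted p = 0.0625), with the size of the difference little moved.

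Hoxc13, a homeodomain factor that activates hair keratin genes, had the largest fitted difference of the 10 and did not pass. Its probe lies on the plus strand at chr15:102759058-102759117 (mm9). It stood at 93.6%, 80.6% and 45.3% of the 75th percentile in controls and at 181%, 125% and 280% after UVB. The groups did not overlap, but both were wide: control replicate 3 was the lowest array and UVB replicate 3 the highest. The fitted difference was 1.41 ± 0.38 on the log2 scale, 2.65-fold, with a 95% interval of 0.48 to 2.33 (limma, adjusted p = 0.0615). In unscaled signal, control arrays at 219 to 418 units and UVB arrays at 394 to 846 overlapped. Hoxc13 passed under 4 other settings, among them scaling by the median (1.30, adjusted p = 0.0472) and the normexp background correction (1.20, adjusted p = 0.0210), but did not pass with any 1 array left out (1.09 to 1.69, adjusted p 0.0610 to 0.143).

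Msx2, a homeodomain factor of the matrix that acts upstream of Foxn1 in shaft differentiation, showed a like spread. Its probe lies on the minus strand at chr13:53562318-53562377 (mm9). It stood at 86.0%, 88.7% and 65.0% of the 75th percentile in controls and at 168%, 102% and 260% after UVB. The groups did not overlap, although UVB replicate 2 was close to the controls. Msx2 was 2.08-fold higher on average, 1.06 ± 0.35 on the log2 scale, with a 95% interval of 0.22 to 1.89 (limma, adjusted p = 0.0955). Msx2 passed without UVB replicate 2 (1.40, adjusted p = 0.0429) and with normexp (0.91, adjusted p = 0.0438). Before scaling, control arrays at 312 to 460 units and UVB arrays at 320 to 784 overlapped.

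Foxn1, the forkhead factor whose loss gives the nude mouse its failed hair shafts, did not pass. It read 95.2%, 114% and 104% of the 75th percentile in controls and 124%, 114% and 141% after UVB (probe at chr11:78171867-78171926, minus strand, mm9). Control replicate 2 and UVB replicate 2 were almost level, so that the groups overlapped by that pair alone. Its log2 fold change was 0.27 ± 0.14, with a 95% interval of -0.07 to 0.60 (limma, adjusted p = 0.240), which leaves out a change of 2-fold in either direction.

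Markers of the matrix and precortex, where Hoxc13, Msx2, Foxn1 and Dlx3 act, were mostly lower. Of 17 tested, 4 fell (Jag2, Cux1, Wnt10b and Wnt3) and 12 did not pass. The gene lists overlap: Jag2, Wnt10b and Wnt3 are counted again among the hair growth signals, and Cux1 among the other transcription factors. The count that fell was 1 to 3 with an array left out and 0 with the replicate number as a block. Dsg4, below background in all controls, was at least 5.78-fold higher (0 to 1 genes higher with an array left out). Lef1, which marks the precortex, was among those that did not pass (0.67 ± 0.58). The summed signal of the list was 86.5 to 105.5 times the 75th percentile in controls and 68.9 to 71.8 after UVB. Wnt10a, the brightest gene of the list, weighs most in these sums and did not pass (-0.85 ± 0.23, limma adjusted p = 0.0591). Of 19 cell cycle genes tested, all with negative values, 6 fell (2 to 6 with an array left out), led by the replication factors Mcm2 (-1.11), Mcm6 (-1.03) and Mcm5 (-1.13), and their sum was 188 to 234 in controls and 114 to 149 after UVB. The part of dividing matrix cells in the values of the 4 factors was not tested.

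**Figure D2:**
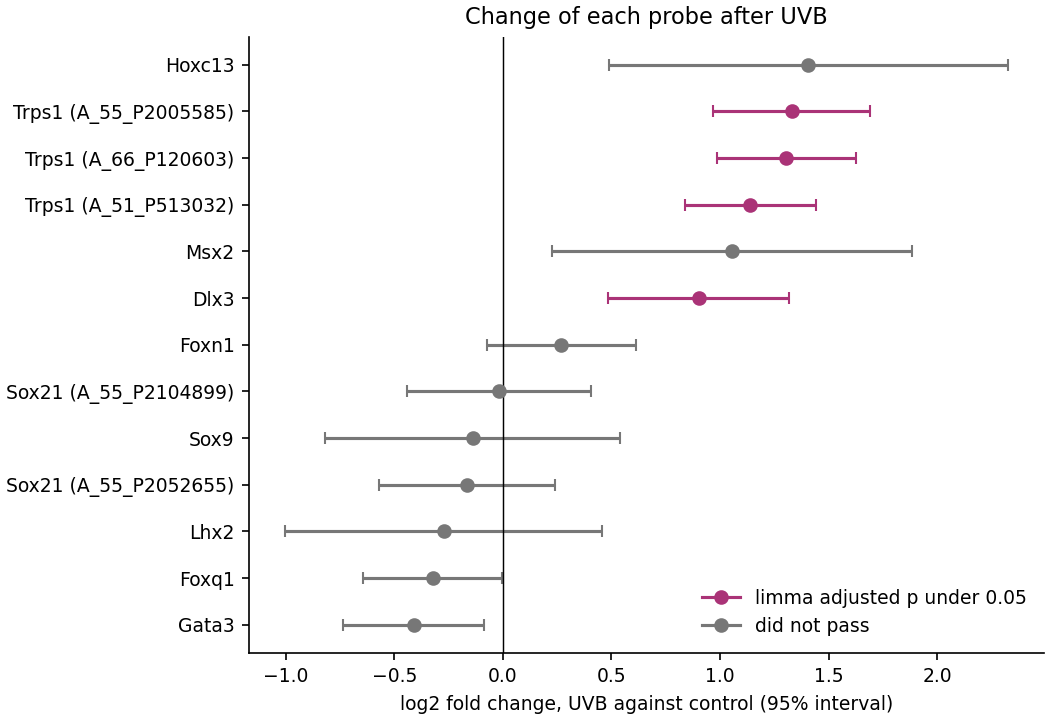
Log2 fold change of UVB against control (x axis) with its 95% interval for each of the 13 probes, from limma on all probes, with probes of adjusted p under 0.05 in purple. The 3 Trps1 probes (1.14 to 1.33) and Dlx3 (0.90) passed, and the intervals of Hoxc13 and Msx2 are the widest among the probes with positive values.

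Promoter sequences of RefSeq (GRCm38.p6) were at hand for 5 of the 10 factors, Msx2, Foxn1, Gata3, Lhx2 and Sox21, in 6 windows of 250 bases before to 50 after a start. No window is shown for Hoxc13, Dlx3, Sox9, Foxq1 and Trps1. The windows were searched on both strands for a homeodomain core, TAATTA, which reads the same on both strands, because 4 of the factors are homeodomain proteins. The core lay in the Msx2 window, its first base at -187 from the start, and in the Foxn1 window, at -29, and in none of the other 4 windows. Of 32851 promoters of the same length, 5.291% held it. The GATA core AGATAA (11.178% of promoters), the forkhead core GTAAACA (3.65%) and the SOX core ACAATG (12.569%) were in none of the 6. The 250 bases before the start of Msx2 (chr13:53472781-53473030, minus strand) and Foxn1 (chr11:78386609-78386858, minus strand) are printed with the homeodomain core in capitals. A match describes the letters and does not show binding.
Msx2 promoter: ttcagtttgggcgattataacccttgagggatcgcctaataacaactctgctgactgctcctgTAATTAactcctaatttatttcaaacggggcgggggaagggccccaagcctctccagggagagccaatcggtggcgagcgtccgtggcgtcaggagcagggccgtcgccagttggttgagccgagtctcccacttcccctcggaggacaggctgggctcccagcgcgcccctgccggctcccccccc
Foxn1 promoter: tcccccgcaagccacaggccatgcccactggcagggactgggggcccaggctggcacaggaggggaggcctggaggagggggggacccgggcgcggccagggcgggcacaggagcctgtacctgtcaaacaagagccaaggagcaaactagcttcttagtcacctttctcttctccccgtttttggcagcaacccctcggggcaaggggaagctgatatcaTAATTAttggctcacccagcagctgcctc

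Gata3, a zinc finger factor that directs the inner root sheath lineage and is also made in interfollicular epidermis and lymphocytes, was lower in every UVB array and did not pass. It stood at 4350%, 5322% and 4829% of the 75th percentile in controls and at 3373%, 3887% and 3626% after UVB (probe at chr2:9779551-9779610, minus strand, mm9). The 3 UVB arrays lay within a narrow range below all controls. Gata3 differed by -0.41 ± 0.13 on the log2 scale, with a 95% interval of -0.73 to -0.10 (limma, adjusted p = 0.0899). Gata3 passed as lower with normexp (-0.48, adjusted p = 0.0366) and with a trended and robust prior in limma (adjusted p = 0.0392).

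While Gata3 was lower in every UVB array, 12 of 14 tested inner root sheath genes rose (8 with the filter set to all 6 arrays) and the other 2 did not pass. Krt27, a keratin of the sheath, and trichohyalin (Tchh), its granule protein, rose by 8.48 and 7.33 (log2). Tchhl1 was not well above background in any control mouse and was at least 646-fold higher after UVB. Of 16 lymphocyte markers 12 were tested, with 6 lower (3 to 4 with an array left out) and 2 higher: Thy1 (-1.85), Cd3g (-2.05) and Cd3d (-1.45) fell, while Icos (1.92) rose and Cd8a was at least 2.56-fold higher. Their summed signal was 50.5 to 56.6 times the 75th percentile in controls and 21.4 to 27.7 after UVB. Thy1, which fibroblasts also express and the fibroblast list holds too, made up 29.7 to 31.2 and 7.74 to 9.43 of these sums, and without it they were 20.4 to 25.4 and 13.6 to 19.5. Il4, Il13 and Il1rl1, which mark cells that depend on Gata3, were too dim to be tested. The part of lymphocytes in the Gata3 value was not tested.

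Lhx2, a LIM homeodomain factor of bulge stem cells and the early hair germ, did not pass. It stood at 694%, 727% and 469% of the 75th percentile in controls and at 466%, 379% and 762% after UVB (probe at chr2:38224933-38224992, plus strand, mm9). The groups overlapped fully: the highest array of all was UVB replicate 3, and the lowest UVB replicate 2. The log2 fold change was -0.27 ± 0.30, with a 95% interval of -1.0 to 0.46 (limma, adjusted p = 0.585).

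Sox9, an HMG box factor needed for bulge stem cells and the outer root sheath, was printed in 10 spots per array, whose SD within an array was 0.04 to 0.07 on the log2 scale. Its probe lies on the plus strand at chr11:112648809-112648868 (mm9). It stood at 356%, 309% and 207% of the 75th percentile in controls and at 234%, 207% and 352% after UVB. The arrays of each group spanned nearly the same range. The log2 fold change was -0.14 ± 0.28, with a 95% interval of -0.82 to 0.54 (limma, adjusted p = 0.771), and it changed sign without control replicate 1 (0.025) and without UVB replicate 2 (0.018). Among 20 markers of bulge and outer root sheath, all tested, 1 rose (Tbx1) and 4 fell, led by Postn (-1.31), Lgr6 (-1.36) and Igfbp3 (-1.90). Tbx1 is counted again among the other transcription factors. Lgr6 lost its call as the mean of its probes (-0.84, limma adjusted p = 0.0561) and without control replicate 2 or UVB replicate 1 (adjusted p = 0.0549 and 0.0551), Igfbp3 without UVB replicate 1 or any control array (limma, adjusted p 0.0635 to 0.0858), and 1 to 4 fell with an array left out. The summed signal of the 20 markers overlapped between the groups (1831 to 2366 in controls, 1815 to 2144 after UVB). Krt5 and Krt14, the brightest genes of the list on average, weigh most in these sums and did not pass (0.10 ± 0.14 and -0.30 ± 0.13). Postn, Lgr6 and Igfbp3 weigh little in them.

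Sox21, an HMG box factor of the hair shaft cuticle whose loss causes hair shedding, was read by 2 probes on the minus strand of chromosome 14, chr14:118633351-118633410 and chr14:118633788-118633847 (mm9).
Sox21 A_55_P2052655: tatatgagagatgaccgccgttccttttgt
Sox21 A_55_P2104899: agagcgtgtggatttcgcagcatcattccc

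The brighter Sox21 probe, A_55_P2052655, read 401%, 403% and 315% of the 75th percentile in controls and 356%, 359% and 282% after UVB. Replicate 3 was the lowest array of both groups, and the groups overlapped. The log2 fold change was -0.16 ± 0.17, with a 95% interval of -0.56 to 0.23 (limma, adjusted p = 0.540). The other probe, A_55_P2104899, read 84.0%, 81.7% and 59.7% in controls and 81.6%, 71.7% and 67.7% after UVB, a log2 fold change of -0.02 ± 0.18 (limma, adjusted p = 0.962 over all probes) whose sign turned with the arrays kept. Neither Sox21 probe differed between the groups beyond the spread of its arrays.

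Foxq1, a forkhead factor of the hair medulla known from the satin mouse, was lower in every UVB array and did not pass. It stood at 193%, 194% and 176% of the 75th percentile in controls and at 143%, 139% and 169% after UVB (probe at chr13:31652206-31652265, plus strand, mm9). UVB replicate 3 came within a few percent of control replicate 3. Foxq1 differed by -0.32 ± 0.13 on the log2 scale, with a 95% interval of -0.64 to -0.01 (limma, adjusted p = 0.148).

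**Figure D3:**
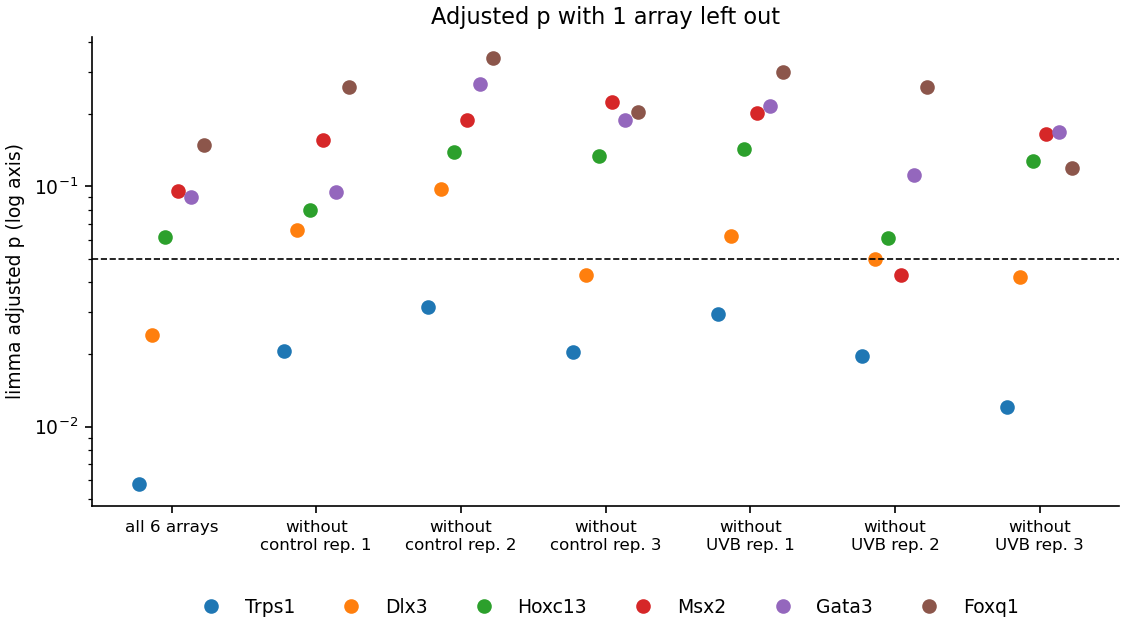
Benjamini-Hochberg adjusted limma p (y axis, log scale) of the 6 factors whose groups did not overlap, with all 6 arrays and with each array left out, and a dashed line at 0.05. Trps1 lies below the line in every column, Dlx3 crosses it without control replicate 1 or 2 or UVB replicate 1, and Msx2 falls below it only without UVB replicate 2.

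The structural genes that several of these factors are known to serve differed far more than the factors did. Of 14 hair shaft keratins tested, 11 rose and 3 did not pass, but 7 of the 14 were not well above background on every control array and entered the test through the UVB arrays. With the filter set to all 6 arrays, 4 shaft keratins rose, among them Krt33a (8.75 on the log2 scale), and 8 inner root sheath genes. The fitted median of the 14 shaft keratins was 5.71, or 5.57 with the genes below background in all controls set to their bounds, and that of the 14 inner root sheath genes 6.13, or 5.26. Krt33b and Krt34 were not well above background in any control mouse and were at least 524-fold and 231-fold higher after UVB. By contrast, the widest difference among the 10 factors was 2.65-fold.

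**Figure D4:**
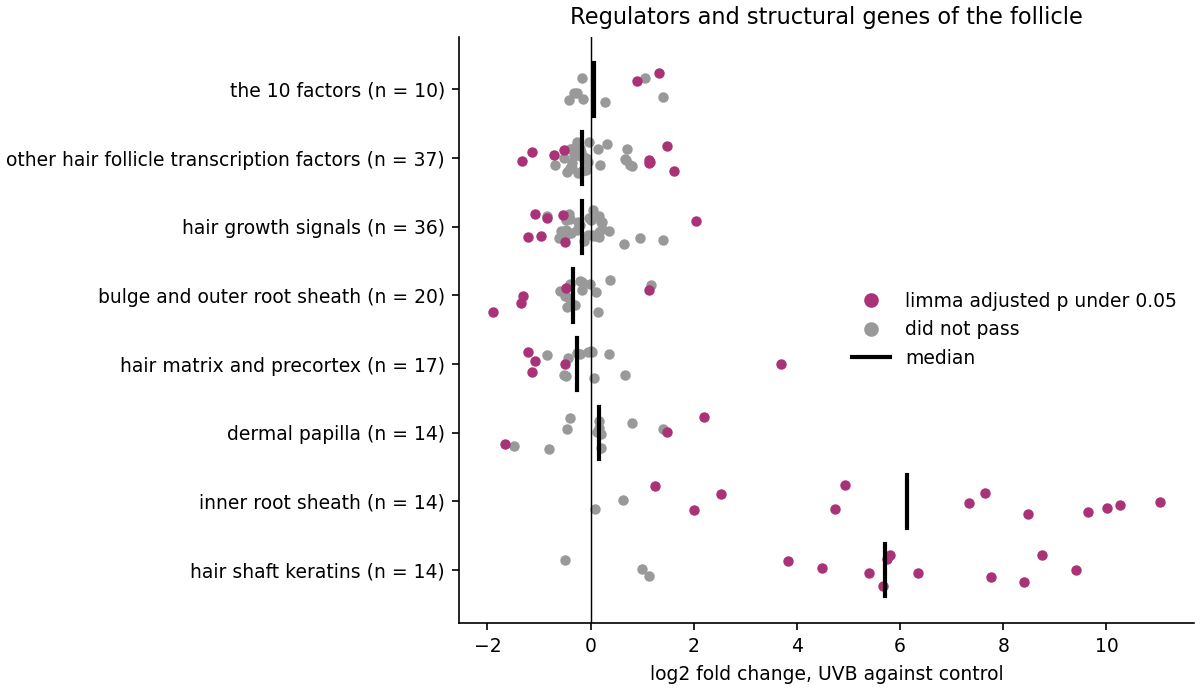
Log2 fold change of UVB against control (x axis) for the 10 factors and for the tested genes of 7 lists of follicle genes, 1 point per gene, purple where the limma adjusted p was under 0.05, with a black bar at the list median. Regulators and signals cluster around 0 (medians -0.17 to 0.06), while inner root sheath and hair shaft genes have medians of 6.13 and 5.71; fitted values of genes below background in controls have no exact size.

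The UVB arrays kept a common order in many of the factors, a pattern chosen after the values were seen. UVB replicate 3 was the highest UVB array in 8 of the 10, all but Gata3 and Sox21, where 32% of 24329 genes with all 6 values had that array highest. The full order of replicate 3 over 1 over 2 was found in 7 of the 10 (Hoxc13, Msx2, Foxn1, Lhx2, Sox9, Foxq1 and Trps1), against 17% of genes. The summed signal of hair shaft keratins followed that order too, at 367, 108 and 66.0 times the 75th percentile in UVB replicates 3, 1 and 2, and so did that of inner root sheath genes, at 1206, 646 and 371. In controls these sums were 18.5 to 24.1 and 33.1 to 62.9, both highest in replicate 3. Krt85 weighed most in the control shaft sums (log2 signal 3.90, 3.77 and 4.19 in replicates 1 to 3). In the control sheath sums it was Ctsl (4.35, 5.28 and 5.47), and neither gene passed. Among genes that rose, Krt33a (-3.19, -3.41 and -3.68) and Tchh (-0.10, -0.13 and -0.46) were lowest in control replicate 3. Krt86 and Krt72 were highest there. The control sums thus do not stand for the genes that rose. Control replicate 3 was the lowest control in 7 of the 10 factors (Hoxc13, Msx2, Lhx2, Sox9, Sox21, Foxq1 and Trps1), against 36.3% of genes. Lhx2 and Sox9, which did not differ between groups beyond their spread, were thus high in the UVB mouse with the highest hair keratin signal. In control replicate 3, where the sums weighted by Krt85 and Ctsl were highest, both were at their lowest of the controls. The factors share arrays and scaling, so that 1 mouse can move several of them, and the part of the number of hair-forming cells in each mouse was not tested.

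**Figure D5:**
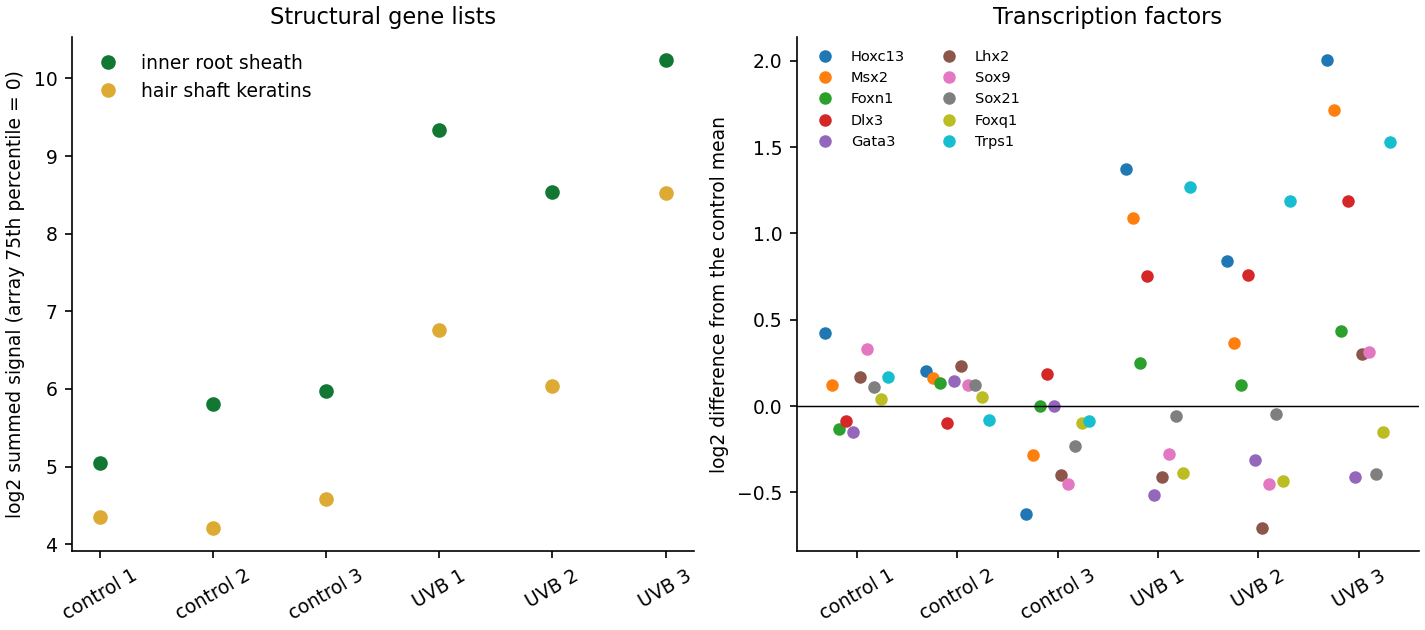
Left, log2 summed signal of inner root sheath and hair shaft genes in each of the 6 arrays, in multiples of the 75th percentile. Right, log2 difference of each of the 10 factors from its control mean in the same arrays: the highest UVB array of the 2 sums, replicate 3, is also the highest UVB array of 8 factors. The highest control array of the 2 sums, replicate 3, is the lowest control array of 7 factors. Ctsl and Krt85, which did not pass, weigh most in the control sums, which thus do not stand for the genes that rose.

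Across the 6 arrays, the genes whose pattern was most like each factor were named as a description, with Pearson's r over 6 arrays that share 2 groups. For Trps1 they were Krtap6-2, a keratin-associated protein of the hair shaft (r = 0.998), and Krt87, a hair keratin (r = 0.997), which were at least 109-fold and 82.1-fold higher after UVB, both below background in all controls. For Hoxc13 they were Ccdc68 (r = 0.997, log2 fold change 1.16) and Inpp5f (r = 0.996, 0.70). For Msx2 they were Dse (r = 0.999, 0.45) and 4931402G19Rik (r = 0.998, 1.02; well above background on 3 of 6 arrays), and for Dlx3 Arhgap29 (r = 0.998, 0.73) and Cited2 (r = 0.998, 0.52). Among these 8 genes, Krtap6-2, Krt87 and Arhgap29 passed, the first 2 of them entering the test through the UVB arrays alone. The control values of Krtap6-2 and Krt87 have no exact size, so their r with Trps1 does not describe how they vary among controls. The nearest genes were Gfi1b for Foxn1, Sco1 for Gata3, Cldn10 for Lhx2, Ptpdc1 for Sox9, Olfr822 for Sox21 and Rbms3 for Foxq1.

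Other transcription factors of the follicle, 42 genes of which 37 were tested, moved in both directions. Of them 5 passed as higher (5.55% of all genes) and 4 as lower (7.01%), with a median of -0.17 against -0.04 over all genes. The 4 include Trp63, counted by its brightest probe alone. Dlx2, a relative of Dlx3, rose by 1.62 ± 0.17 (limma, adjusted p = 0.00472; 0.99 with normexp), and Runx1, a regulator of follicle stem cells, by 1.14 ± 0.17 (adjusted p = 0.0129). Tbx1 rose by 1.14 ± 0.22, Prdm1 by 1.48 ± 0.30 and Dlx4 by 1.14 ± 0.28 (0.68 with normexp), with limma adjusted p of 0.0243, 0.0281 and 0.0462. Satb1, a chromatin organizer, fell by 1.33 ± 0.21, Cux1 by 1.14 ± 0.22 and Gata6 by 0.71 ± 0.14 (limma, adjusted p 0.0158 to 0.0256). The brightest probe of Trp63, a factor that maintains stratified epithelium, differed by -0.51 ± 0.12 (limma, adjusted p = 0.0456). Dlx2 and Runx1 passed with every array left out, and the other 7 each lost their call without control replicate 2 (adjusted p 0.0640 for Tbx1, 0.102 for Prdm1, 0.145 for Dlx4, 0.0652 for Satb1, 0.0942 for Cux1, 0.0992 for Gata6 and 0.116 for Trp63). Dlx4 also lost it with quantile scaling (0.0538), the deposited table (0.0536) and both looser filters on dim probes (0.0556 and 0.0708), and the Trp63 probe with the same filters (0.0547 and 0.0813). All but Satb1 lost it without UVB replicate 1 too (adjusted p 0.0702 to 0.129). Prdm1, Gata6, Trp63 and Dlx4 lost it without control replicate 1 (adjusted p 0.0627 to 0.103) and Cux1, Trp63 and Dlx4 without control replicate 3 (0.0702 to 0.110). Without UVB replicate 2 it was lost for Prdm1, Cux1, Tbx1, Gata6 and Trp63 (0.0556 to 0.0698), and without UVB replicate 3 for Prdm1, Tbx1, Trp63 and Dlx4 (0.0633 to 0.101). Cux1 and Trp63 did not pass as the mean of their probes (-0.79, adjusted p = 0.0696, and -0.17, adjusted p = 0.403), and the 4 Trp63 probes did not share a sign. In the fit on all probes, the Trp63 probe behind the fall did not pass (limma, adjusted p = 0.0521), while probe A_55_P2161055 passed as higher (0.59, adjusted p = 0.0499), so that no direction is given for the gene.

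Signals that start and shape hair growth, 42 genes with 36 tested, held 1 gene that rose (5.55% of all genes) and 6 that fell (7.01%). Of those that fell, Jag2, Wnt10b and Wnt3 are also in the matrix list. Fgf22 rose by 2.05 ± 0.28 and Jag2, a Notch ligand, fell by 1.08 ± 0.14, both with every array left out as well (limma, adjusted p = 0.0102 and 0.00926). With the replicate number as a block, Jag2 lost its call (limma, adjusted p = 0.0602) and 0 genes of the list passed as lower. Tgfb1 fell by 0.96, Eda by 0.85 (0.42 with normexp), Wnt10b by 1.21 (0.43 with normexp), Fgfr2 by 0.55 and Wnt3 by 0.49, and each of these 5 lost its call without control replicate 2 (limma, adjusted p 0.0698 to 0.160) and without UVB replicate 1 (adjusted p 0.0520 to 0.126). Eda, Wnt10b, Fgfr2 and Wnt3 also lost it without control replicate 1 or 3 (adjusted p 0.0506 to 0.112), Wnt10b, Fgfr2 and Wnt3 without UVB replicate 2 (0.0572 to 0.0660), and Fgfr2 and Wnt3 without UVB replicate 3 (0.0774 and 0.107). Wnt3 lost it with scaling by the median (0.0645), the filter of at least 1 array (0.0555) and no filter (0.0813) as well, and Fgfr2 with no filter (0.0659). Shh, a signal of the growing matrix, and Edar, the receptor of Eda, were too dim to be tested.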

How the data were processed

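Sample titles gave the groups and replicate numbers. The 10 factors, the gene lists and the rule for named genes were chosen with earlier results of these data known. Per the file headers, the authors extracted the intensity of each spot with Agilent Feature Extraction 10.7.1.1, and the processed intensity is background-subtracted and detrended but not scaled across arrays. The authors also deposited a table of log2 values, with sorted columns alike within 0.00212, column medians of 4.96 and an r of 0.99866 or more with the array each belongs to. Its scale and centring are known from this comparison alone, its making is not stated, and it was used as one of the alternatives.

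Here each array's processed intensity was put on the log2 scale relative to its 75th percentile over non-control spots. Control spots were dropped, as were 135 to 274 outlier spots on each array, and repeated spots were averaged. A probe entered the test if at least 3 arrays had it well above background and each group had at least 2 values. The brightest such probe stood for its gene, which decides which Trps1 and Sox21 probe represents the gene. Of 55681 probes, 26582 took their name from an accession and 3094 from a symbol in a RefSeq table of GRCm38.p6, and 26005 kept the name in the file. Groups were compared by lmFit and eBayes of limma 3.58.1 under R 4.3.3, two-sided and with no covariate. For a probe well above background on no array of a group, the fold is a bound: the bright group's mean over the dim group's mean of, per array, the higher of that probe's signal and the lowest signal well above background. Named were all 10 factors, other follicle transcription factors that passed, the 3 genes of smallest p in each list and the 2 genes most correlated with each factor. Some of these are not reported here. Other named genes, such as untested markers and further signals, were chosen after their values were seen.

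In 5 simulated data sets of 24355 genes, 34.2% of 2-fold and 76.2% of 4-fold changes were recovered, with 4.2 false calls per set. Many 2-fold changes thus went uncalled in these sets at 3 arrays per group. Far fewer genes were changed there than the 12.6% that passed in the measured data. The adjusted p depends on that share, so the recovered percentages do not carry over to the measured data. All arrays shared 1 slide and 1 scan time. Alternatives were scaling by quantiles or by the median, normexp (offset 50), the deposited table, 3 further filters on dim probes, averaging a gene's probes, a trended and robust prior, the replicate number as a block, and leaving out each array. List sums without Prdm1 or Thy1 and list medians with bounds were added after seeing the data.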

Additional observations from a re-analysis of the deposited data

How the results depend on the processing

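Every alternative that was run kept the sign of the log2 fold change of each of the 10 factors except Sox9, which turned to 0.025 without control replicate 1 and 0.018 without UVB replicate 2 (range with an array left out -0.37 to 0.025). The second Sox21 probe, A_55_P2104899, turned to 0.012 with normexp and ranged from -0.17 to 0.072 with an array left out. Among other list genes, Myh1, a muscle myosin, turned to 0.045 with normexp. Trps1 passed under all of them (limma, adjusted p 0.00074 to 0.0419). Dlx3 lost its call only with an array left out or with the replicate number as a block (0.90, adjusted p = 0.0541). The count of factors passing as higher was 4 with normexp, 1 with the replicate block and 1 to 3 with an array left out. The count of factors passing as lower was 1 (Gata3) with normexp and with the trended and robust prior, and 0 with an array left out. Of the other follicle transcription factors, 3 rose and 0 fell with the replicate block, 2 fell by the mean of the probes, and 2 to 5 rose and 0 to 3 fell with an array left out. Over all genes, 2548 were higher with normexp and 472 with the replicate block, and 1061 were lower with no filter on dim probes and 301 with the block. With an array left out, 468 to 957 genes were higher and 391 to 1064 lower. Over all probes, 3732 were higher with normexp and 501 with the block, 1059 were lower with no filter, 3185 with the trended and robust prior and 298 with the block, and 532 to 1099 were higher and 411 to 1230 lower with an array left out. The share of higher genes among the calls was 44.2%, against 61.1% with the replicate block, 35.4% with scaling by the median and 53.1% to 54.5% without a control array, and the cause was not tested. Scaling by the median moved the median of all genes from -0.04 to -0.14. Same-numbered arrays of the 2 groups did not deviate together (r of -0.11, -0.26 and -0.08 across genes for replicates 1 to 3). No pairing of the mice by number was thus seen, which does not exclude one. The number of arrays, 3 per group, limits every statement: the 95% intervals of Lhx2 and Sox9 reach from -1.0 to 0.46 and from -0.82 to 0.54.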
